A study of Mus musculus with 14 samples.

Results

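Messenger RNA was compared between mouse oocytes in 2 nuclear states, the non-surrounded nucleolus (NSN) and the surrounded nucleolus (SN), after overexpression of the red fluorescent protein mCherry. The series asks, by its title, how R-loops (RNA:DNA hybrids) act on histone H3K36me3 and H3K4me3 as SN oocytes develop, and mCherry is its control for overexpressed Rnaseh1, the nuclease that cuts the RNA strand of such hybrids. The 4 libraries described here, of 14 in the series, were SN mCherry replicates 1 and 2 and NSN mCherry replicates 1 and 2. A further 4 libraries of NSN and SN oocytes that overexpressed Rnaseh1 share the table and served as a second stage comparison with no library in common. The labels do not tell whether their oocytes came from other animals than the mCherry oocytes. All groups carried an overexpressed gene, so none stands for untreated oocytes. The labels give no strain, age, hormone treatment, number of oocytes per library or sorting criterion for the stage. Nor do they tell whether a group's replicates are separate animals or pools of oocytes. A p-value here therefore reflects library-to-library spread alone, which may be technical. Of 35389 gene identifiers, 12736 had a level of at least 1 TPM in at least 2 of the 8 libraries and were tested.

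In the growing oocyte the chromatin first lies dispersed in the nucleus and genes are transcribed (NSN). It then condenses into a ring around the nucleolus while transcription shuts down (SN), and the oocyte lives on stored mRNA until the embryo's own genome is activated. After the shutdown, levels can change through decay, poly(A) tail length or stabilisation of stored mRNA, and all of these bear on libraries made from polyadenylated RNA. TPM, the unit of the levels, expresses each gene as a share of all transcripts in the library, corrected for gene length, so a change in the total RNA of an oocyte is not visible in it.

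The libraries were checked before the genes. All 10 oocyte markers were present at 1 TPM or more, with a summed level of 20590 to 25700 TPM. Of 10 markers of granulosa and cumulus cells, 4 reached 1 TPM and 4 were listed at 0 in all 4 libraries. Their summed level was 47.7 to 55.3 TPM in NSN and 47.0 to 53.4 TPM in SN, most of it from Cyp19a1 (36.5 to 46.1 TPM). Markers of theca, stroma and endothelium summed to 12.7 to 13.8 TPM in NSN and to 10.9 and 28.03 TPM in SN, with 5 of 9 at 0 throughout, and 6 markers of blood and immune cells to 0.810 to 1.74 TPM, with 5 at 0. A longer list of 12 blood and immune genes summed to 65.7 and 41.8 TPM in NSN and to 18.1 and 69.6 TPM in SN, nearly all of it C1qb (64.3, 40.8, 15.9 and 67.9 TPM in the same order), a complement gene of macrophages whose groups overlapped. The part of these genes in the stage differences was not tested. In bulk libraries fewer cells of a type and less RNA per cell cannot be told apart. The Rnaseh1 transcript stood at 137 and 108 TPM in NSN and at 81.0 and 131 TPM in SN, and the groups overlapped. Between 11116 and 11620 genes reached 1 TPM in a library.

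The 2 SN mCherry libraries stood apart from each other. The gene-wise differences between replicates had an SD of 0.617 on the log2(TPM + 1) scale in NSN mCherry and of 1.05 in SN mCherry. Across the tested genes, Pearson's r was 0.967 between the NSN libraries and 0.908 between the SN libraries, and r between an NSN and an SN library ran from 0.926 to 0.963. SN replicate 2 lay at -91.0 on the first principal component of the 8 libraries, which held 56.8% of the variance, against 3.6 for SN replicate 1 and -40.7 and -25.5 for the NSN libraries. Among the Rnaseh1 libraries NSN replicate 2 stood apart, at 113.1 on the same component. Values are therefore given library by library.

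No gene passed a Benjamini-Hochberg adjusted p of 0.05 in limma (0 of 12736, 0%), and the smallest adjusted p was 0.247. At an unadjusted p under 0.05, 275 genes were lower in SN (2.16% of those tested) and 53 were higher (0.416%). By a rule that needs no p, both SN libraries below both NSN libraries and a difference of at least 2-fold, 461 genes were lower (3.62%), and 174 met the mirror rule (1.37%). With no minimum on the size, the libraries were separate in 2425 genes lower in SN (19%) and 1074 higher (8.43%). Under both rules more genes were lower than higher, while the median difference over all tested genes was -0.03 (log2). At the unadjusted threshold the higher genes made up 16.2% of the total, and 31.2% after quantile normalization or 33.9% with the trend along GC content removed. Without SN replicate 1 the surplus of lower genes was gone, with 318 lower and 347 higher, and without SN replicate 2 it was 187 lower and 96 higher. Adjusted p was 1 for every gene described below except Gm13008 (0.247) and Sbf1 (0.793), so none is called changed, and differences are SN minus NSN on the log2(TPM + 1) scale with their SE.

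Herpud1 and Selenos, membrane proteins of the endoplasmic reticulum (ER) that work in the disposal of misfolded proteins, were among the genes with the largest differences. Selenos (selenoprotein S, ENSMUSG00000075701.9, chromosome 7, 66079649 to 66089405, GRCm38) anchors the p97 ATPase at the ER membrane. It stood at 19.8 and 20.6 TPM in the NSN libraries and at 2.39 and 0.710 TPM in the SN libraries, a difference of -3.14 ± 0.54 (unadjusted p = 0.000539). Herpud1 (ENSMUSG00000031770.16, chromosome 8, 94386438 to 94395377), a stress-induced part of the ubiquitin ligase complex at that membrane, stood at 8.58 and 5.85 TPM in NSN. It was listed at 0 in SN replicate 1 and stood at 0.250 TPM in replicate 2, with a difference of -2.86 ± 0.52 (unadjusted p = 0.000701). For both genes both SN libraries lay far below both NSN libraries, and SN replicate 2 of Selenos was also below replicate 1.

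Herpud1 is a textbook target of the unfolded protein response, the signalling that raises chaperones when proteins misfold in the ER, and its promoter is shown for the element by which that response is known to act. Sequences are from RefSeq (GRCm38.p6), 250 bases before to 50 bases after the gene's start, 5′ to 3′ on the gene's strand, with matches in capitals. Herpud1 (chr8:94386179-94386478, plus strand) holds 1 ERSE-II match (ATTGG, 1 base of any kind, then CCACG, on either strand), which starts 52 bases before the gene's start. Hspa5, the gene of the main ER chaperone BiP (chr2:34771840-34772139, plus strand), holds 1 ERSE match (CCAAT, 9 bases of any kind, then CCACG), which starts 65 bases before the start.
Herpud1: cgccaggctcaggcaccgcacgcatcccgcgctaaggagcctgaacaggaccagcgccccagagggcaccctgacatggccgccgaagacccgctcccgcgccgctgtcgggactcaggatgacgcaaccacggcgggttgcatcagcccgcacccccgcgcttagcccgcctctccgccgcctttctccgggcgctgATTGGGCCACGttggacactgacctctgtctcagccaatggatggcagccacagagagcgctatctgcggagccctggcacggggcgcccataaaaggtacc
Hspa5: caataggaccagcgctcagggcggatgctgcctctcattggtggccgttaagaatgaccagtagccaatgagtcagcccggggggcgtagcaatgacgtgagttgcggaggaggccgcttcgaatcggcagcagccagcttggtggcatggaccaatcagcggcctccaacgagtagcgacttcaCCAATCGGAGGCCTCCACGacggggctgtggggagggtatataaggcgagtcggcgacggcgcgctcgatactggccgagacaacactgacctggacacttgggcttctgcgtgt
The ERSE-II letters occur in 0.0365% of 32851 promoters of this length and the ERSE letters in 0.119%. The Selenos promoter (chr7:66079399-66079698) has no match to either in this window.

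The promoters share this class of element, but the levels of the 2 genes did not follow each other. Hspa5 stood at 214 and 166 TPM in NSN and at 89.3 and 199 TPM in SN, so its groups overlapped, with a difference of -0.49. Of the 70 tested genes of a list of ER quality control and the unfolded protein response, 0 passed the adjusted threshold. At the unadjusted one 3 were lower (Selenos, Herpud1 and Edem3) and 0 higher, against 2.16% and 0.416% of all genes. By the 2-fold rule 3 (4.29% of the list) were lower, against 3.62% of all genes. The list's median was -0.25, against -0.03 over all genes, and it was -0.49 in SN replicate 1 and 0.07 in replicate 2. In the Rnaseh1 libraries the list's median was 0.14, against 0.02 over all genes. Of 54 list genes whose promoter was given, 11 held either element. Of these, 9 were below 0 and 2 above with mCherry, against 53.2% of all genes below 0. By library, all 11 were below the NSN mean in SN replicate 1, where the median of all genes was -0.21. In SN replicate 2, where that median was 0.05, 4 were below.

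In the list 18 of 70 genes were lower and 4 higher without overlap, against 19% and 8.43% of all genes. Edem3, which trims mannose from misfolded glycoproteins, stood at 3.32 and 2.89 TPM in NSN and 1.01 and 0.6 TPM in SN (-1.19 ± 0.48). Xbp1, the transcription factor of the response, was at 1.60 and 1.41 TPM against 0.240 and 0.320 TPM, near the level of detection. Dnajb9 and Hsp90b1 were chosen after their values were seen. Dnajb9, a BiP co-chaperone, was at 20.2 and 19.6 TPM against 11.9 and 9.79 TPM. Hsp90b1, the ER form of HSP90, was at 172 and 179 TPM against 129 and 122 TPM. These 4 genes did not overlap between stages in the mCherry libraries. In the Rnaseh1 libraries Edem3, Hsp90b1 and Xbp1 overlapped and Dnajb9 did not. Of 25 tested selenoproteins and genes of selenoprotein synthesis, 2 were lower and 0 higher at the unadjusted threshold, against 2.16% and 0.416% of all genes. The 2 were Selenos and Txnrd2 (a mitochondrial thioredoxin reductase, 1.77 and 3.64 TPM against 0.110 and 0.380 TPM). By the 2-fold rule 2 (8%) were lower and 2 (8%) higher, against 3.62% and 1.37% of all genes. The median of the list was -0.07.

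**Figure D1:**
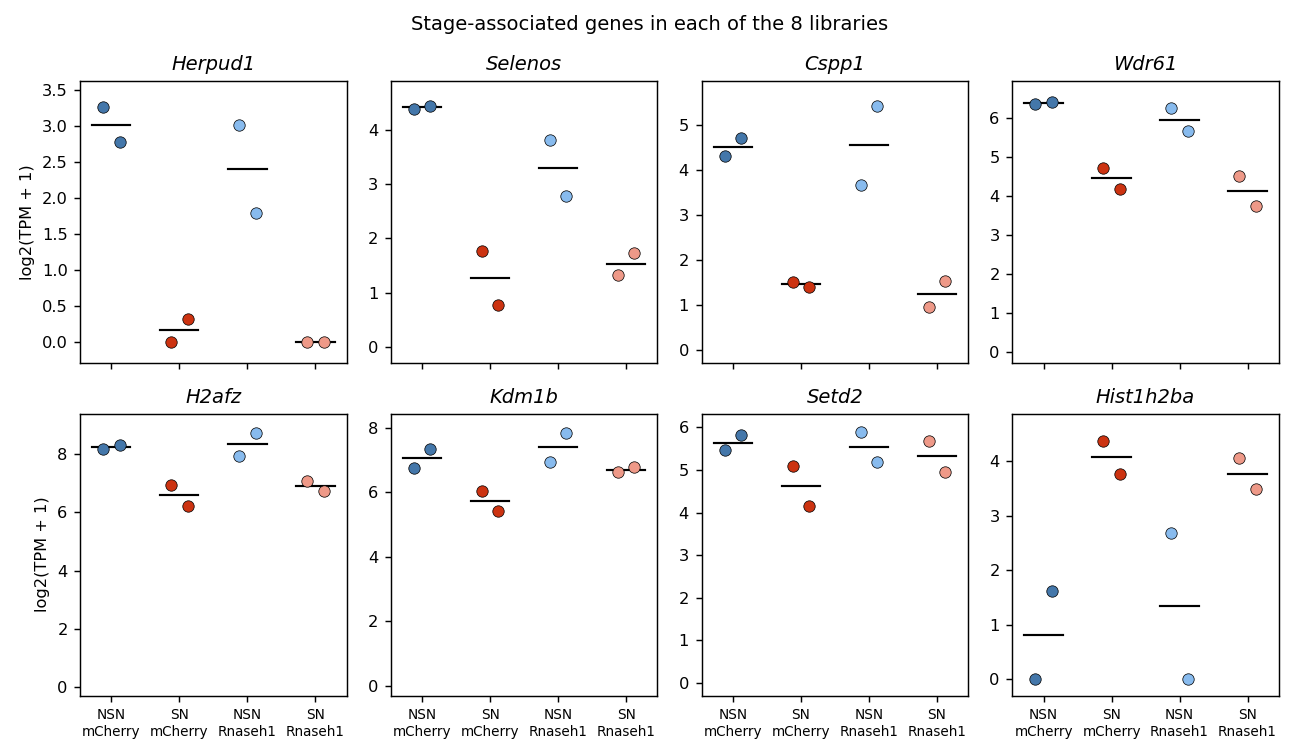
Level of 8 genes, log2(TPM + 1) on the y axis, in the 2 libraries (points) of each group on the x axis; the bar is the mean. Herpud1, Selenos, Cspp1, Wdr61, H2afz and Kdm1b lie lower in SN than in NSN in both treatments, Hist1h2ba lies higher, and the Setd2 groups overlap in the Rnaseh1 libraries.

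Among genes with an unadjusted p under 0.05, separate libraries and a mean of at least 5 TPM in SN, leaving out gene models, the one with the largest difference towards SN was Hist1h2ba (ENSMUSG00000050799.3, chromosome 13, 23933773 to 23934156, minus strand). It encodes TH2B, the H2B variant of testis and oocyte that is packed into germ cell chromatin. Hist1h2ba was listed at 0 and stood at 2.07 TPM in the NSN libraries, against 19.7 and 12.5 TPM in SN, a difference of 3.26 ± 0.92 (unadjusted p = 0.00879). Both SN libraries lay above both NSN libraries. Its neighbour Hist1h2aa, the TH2A gene, starts 306 bases away on the other strand and stood at 50.9 and 99.8 TPM in NSN and 96.7 and 64.3 TPM in SN. The groups of Hist1h2aa overlapped, so the pair did not move together.

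The promoter of Hist1h2ba (RefSeq H2bc1, chr13:23934107-23934406, minus strand) lies between the 2 genes and is shown because the neighbours differ.
Hist1h2ba: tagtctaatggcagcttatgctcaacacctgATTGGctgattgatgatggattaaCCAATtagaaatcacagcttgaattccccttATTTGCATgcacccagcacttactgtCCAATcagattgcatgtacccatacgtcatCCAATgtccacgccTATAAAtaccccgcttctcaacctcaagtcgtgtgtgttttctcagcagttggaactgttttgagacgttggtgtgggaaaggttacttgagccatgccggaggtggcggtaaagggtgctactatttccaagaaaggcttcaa
Capitals mark 4 CCAAT boxes (219, 195, 138 and 108 bases before the start, on either strand), 1 octamer ATTTGCAT (164 bases before) and 1 TATAAA (94 bases before), the elements of many histone H2B promoters. CCAAT occurs in 37.4% of promoters of this length, TATAAA in 13.6% and the octamer in 1.74%. Matches are letters, not measured binding. The annotated start of Hist1h2ba used here is the first base of the ATG start codon. Its distances are therefore to that codon, and the start of transcription is not given.

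Replication-dependent histones, whose mRNA normally ends in a stem-loop without a poly(A) tail, are captured in polyadenylated libraries only in part, and reads of near-identical copies can be divided between them, so their values are uncertain. Of 32 tested, 1 was higher at the unadjusted threshold (Hist1h2ba) and 0 were lower, against 0.416% and 2.16% of all genes. By the 2-fold rule 6 (18.8%) were higher and 0 were lower, against 1.37% and 3.62% of all genes, and the list's median was 0.36, with 0.22 in SN replicate 1 and 0.43 in replicate 2. It was the highest median of 32 lists. Hist1h2bj was at 0 and 2.40 TPM against 5.33 and 11.3 TPM, Hist1h1a at 0 and 2.25 TPM against 3.21 and 4.99 TPM, and Hist1h3g at 5.24 and 0.860 TPM against 5.70 and 10.8 TPM. All 3 were low and none reached the unadjusted threshold. Hist1h2bc, at 577 and 594 TPM in NSN and 502 and 425 TPM in SN, lay the other way. Without overlap 11 members were higher in SN here. Of these, Hist1h2ba, Hist1h3g and Hist1h4a were again above NSN in both SN libraries with Rnaseh1, where 14.1% of all genes were separate in that direction. The list's median with Rnaseh1 was 0.00, against 0.02 over all genes.

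Enzymes of the marks in the series title were followed by library. Setd2 (ENSMUSG00000044791.16, chromosome 9, 110532597 to 110618633), which writes H3K36me3 on transcribed genes, stood at 43.1 and 55.3 TPM in NSN and at 33.4 and 16.7 TPM in SN, a difference of -1.01 ± 0.48 (unadjusted p = 0.0722). Kdm1b (ENSMUSG00000038080.17, chromosome 13, 47043499 to 47085279), which removes H3K4 methylation and is needed for maternal imprints, stood at 106 and 162 TPM in NSN and at 64.4 and 41.4 TPM in SN (-1.33 ± 0.44, unadjusted p = 0.0174). In both genes all NSN values were above all SN values, and SN replicate 2 was the lower of its pair. Of the 8 other tested H3K36 methyltransferases and demethylases, 5 were below 0 and 3 above (-0.28 to 0.91), and of the 4 other H3K4 demethylases 1 was below and 3 above (-0.08 to 0.97). Of 18 subunits of H3K4 methyltransferase complexes 9 were below and 9 above. Kdm1a, the close relative of Kdm1b, stood at 19.0 and 21.5 TPM in NSN and 21.2 and 21.3 TPM in SN.

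Further chromatin genes were lower in SN. H2afz encodes histone H2A.Z, a variant placed at gene starts, and stood at 288 and 317 TPM in NSN and at 123 and 74.1 TPM in SN (-1.65 ± 0.41, unadjusted p = 0.00439). Cbx3, the heterochromatin protein HP1 gamma, stood at 4.80 and 11.4 TPM against 1.21 and 0 TPM (-2.51 ± 0.69). Both have processed pseudogenes, between which reads can be split, so their levels are uncertain. Sirt1, a histone and protein deacetylase, stood at 24.1 and 31.5 TPM against 12.2 and 6.35 TPM (-1.53 ± 0.49). In each of these 3 genes the stages did not overlap. Of 20 tested genes of H3K9 methylation and heterochromatin, 8 were lower in SN without overlap and 0 higher (19% and 8.43% of all genes), with a median of -0.22 (-0.40 and -0.14 in SN replicates 1 and 2). At the unadjusted threshold 1 was lower, against 2.16% of all genes. Polycomb genes had a median of -0.07 over 31, histone deacetylases and acetyltransferases of -0.10 over 21, and DNA methylation genes of 0.07 over 12. In the Rnaseh1 libraries the H3K9 methylation and heterochromatin list had a median of 0.17, against 0.02 over all genes.

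Among the genes of the ring-forming chromosome proteins, those of cohesin and condensin had a median of -0.32 over 24 tested genes. It was -0.34 in SN replicate 1, where the median of all genes was -0.21, and -0.31 in replicate 2, where it was 0.05. Of the 24, 11 were lower without overlap and 1 higher, against 19% and 8.43% of all genes. None reached the unadjusted threshold and none was 2-fold lower. Esco2, the acetyltransferase that locks cohesin, stood at 234 and 212 TPM against 155 and 123 TPM, Pds5a, a cohesin regulator, at 7.92 and 10.5 TPM against 4.47 and 4.12 TPM, and Smc3, the core of the ring, at 63.9 and 63.0 TPM against 58.6 and 48.4 TPM. In the Rnaseh1 libraries the list's median was 0.27, above that of all genes (0.02), and the difference between treatments over the list was not tested.

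The other genes named by size of difference, among those with an unadjusted p under 0.05 and separate libraries, had varied roles. Cspp1 and Deup1 are genes of the centrosome and of centriole production, and Tcte3 encodes a dynein light chain of cilia and sperm tails. Cspp1 (ENSMUSG00000056763.16, chromosome 1, 10037987 to 10136768) stood at 18.8 and 25.1 TPM in NSN and 1.85 and 1.65 TPM in SN (-3.05 ± 0.62, unadjusted p = 0.00139), and Deup1 at 6.15 and 7.54 TPM against 0 and 0.0700 TPM (-2.92 ± 0.66). Tcte3 stood at 3.63 and 10.3 TPM in NSN and was listed at 0 in both SN libraries. Sbf1, a phosphatase-like regulator of phosphoinositides, stood at 7.54 and 8.19 TPM against 0 and 0.330 TPM (-2.94 ± 0.40) and had an adjusted p of 0.793. The separate libraries of these 4 genes were required by the rule that named them.

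Ldhc, the germ cell form of lactate dehydrogenase, stood at 35.5 and 38.6 TPM in NSN and at 3.39 and 10.6 TPM in SN (-2.41 ± 0.53). Clp1, an RNA kinase of tRNA and mRNA 3′ end processing, was at 11.99 and 8.10 TPM against 0.310 and 1.10 TPM, and Psmg2, a chaperone of proteasome assembly, at 9.76 and 10.5 TPM against 0.210 and 1.63 TPM. The remaining 2 genes of the rule were Defb8, a beta-defensin (11.3 and 6.11 TPM, listed at 0 in both SN libraries), and Ighv1-43, an antibody gene segment (30.8 and 11.1 TPM against 5.99 and 0 TPM). Of 5 genes with at least 5 TPM in both NSN libraries and under 1 TPM in both SN libraries (Defb8, Herpud1, Sbf1, Deup1 and the antisense model Gm13008), 3 were also separate in the Rnaseh1 libraries. The 2 genes that met the mirror rule were gene models, and 0 of them separated there.

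Genes higher in SN were fewer and mostly low. Ppcdc, which acts in the making of coenzyme A, stood at 1.88 and 4.84 TPM in NSN and 14.5 and 14.1 TPM in SN (1.90 ± 0.53). Rab43, a GTPase of the Golgi, was listed at 0 in both NSN libraries and stood at 2.17 and 12.7 TPM in SN. Mrs2, the magnesium channel of mitochondria, was at 4.46 and 3.83 TPM against 16.7 and 8.90 TPM (1.37 ± 0.51). The genes Ripply2, Ndor1, Ccl1, LTO1, Rhof, Mpp7 and Dusp11 were also named by the rule, with differences of 1.31 (Dusp11) to 1.98 (Ripply2). The 2 SN libraries gave like values for Ppcdc, Ccl1 and Rhof, and differed by more than 4-fold for Rab43 and Ndor1.

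Transcription, the process that stops at this step, was covered by 4 lists. Of 32 genes of elongation and pausing 2 were lower and 0 higher at the unadjusted threshold, against 2.16% and 0.416% of all genes. Wdr61 (ENSMUSG00000061559.15, chromosome 9, 54714735 to 54734519) is a subunit of the PAF1 complex that rides on RNA polymerase II and of the SKI complex of RNA decay. It stood at 81.4 and 84.8 TPM in NSN and at 25.3 and 17.2 TPM in SN (-1.94 ± 0.42, unadjusted p = 0.00211). Ell2, an elongation factor, was at 5.27 and 6.05 TPM against 2.44 and 0.840 TPM. The PAF1 subunit Cdc73 was at 6.14 and 5.70 TPM against 4.44 and 0.820 TPM, with its SN libraries unlike each other. Over 42 polymerase II subunits and general factors the median was 0.00, and over 51 genes of RNA polymerase I and the nucleolus it was also 0.00. The 11 tested oocyte transcription factors had a median of 0.16, with 4 higher and 2 lower without overlap (8.43% and 19% of all genes). The 2 lower were Tbpl2 and Taf4b. Tbpl2, the oocyte TBP relative, stood at 43.7 and 28.2 TPM in NSN against 19.6 and 13.1 TPM (-1.09 ± 0.41), and Taf4b at 8.49 and 11.5 TPM against 4.90 and 4.66 TPM (-0.91 ± 0.40). Over 28 genes that resolve RNA:DNA hybrids the median was -0.08, with 9 lower and 1 higher without overlap (19% and 8.43% of all genes) and 0 at the unadjusted threshold. The 1 that was higher was Thoc7, of the THO export complex (70.0 and 64.8 TPM against 105 and 102 TPM).

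Stored mRNA is handled by RNA-binding proteins, and a few of these were lower in SN. Ddx4 (VASA), the germ cell RNA helicase, stood at 33.6 and 30.5 TPM in NSN and 9.80 and 14.95 TPM in SN (-1.33 ± 0.38, unadjusted p = 0.00920). Fmr1, a repressor of translation, stood at 6.53 and 8.95 TPM against 2.61 and 1.96 TPM (-1.40 ± 0.47), and Pabpc1, the poly(A)-binding protein of somatic cells, at 27.9 and 31.1 TPM against 10.1 and 5.36 TPM (-1.86 ± 0.73). Of 41 genes of mRNA storage and translational control 2 were lower and 0 higher at the unadjusted threshold (2.16% and 0.416% of all genes), with a median of -0.02. Of 49 genes of deadenylation and decay 1 was lower (all genes 2.16%), Ythdf1, a reader of methylated mRNA (9.76 and 15.6 TPM against 6.24 and 5.08 TPM). Their median was 0.05, so the decay machinery as listed had no common direction.

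Few genes of meiosis passed the unadjusted threshold. Wee1, a kinase that holds CDK1 inactive, stood at 10.5 and 15.7 TPM in NSN and 5.24 and 4.93 TPM in SN (-1.18 ± 0.42, unadjusted p = 0.0231), the 1 gene of 14 in the cAMP arrest list past that threshold (2.16% of all genes were lower). Of 22 genes of meiotic resumption and 37 of anaphase and the spindle checkpoint 0 were, but the SN libraries lay on opposite sides of NSN. The medians were -0.34 (replicate 1) and 0.51 (replicate 2) for resumption and -0.41 and 0.34 for anaphase. Mos, the kinase that starts the MAP kinase cascade of meiosis, stood at 293 and 224 TPM in NSN and at 96.9 and 782 TPM in SN. Among mitochondrial lists, 83 genes of oxidative phosphorylation had a median of -0.07 and 78 mitochondrial ribosomal proteins of -0.06. Mrps34, of the latter, was at 5.05 and 4.19 TPM against 0 and 1.02 TPM (-1.98 ± 0.57). The 44 proteasome genes had a median of -0.07 and the 53 spliceosome genes of -0.03.

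Among abundant transcripts some differed mainly between the 2 SN libraries. Of the 100 genes with the highest mean TPM, 0 reached the unadjusted threshold and 0 differed 2-fold (-0.99 to 0.53). Without overlap 11 were lower and 9 higher, against 19% and 8.43% of all genes. Zp3, of the egg coat, stood at 3308 and 2534 TPM in NSN and at 1131 and 4443 TPM in SN, Zp1 at 328 and 265 TPM against 140 and 753 TPM, and Zar1, a maternal effect gene, at 384 and 419 TPM against 358 and 1609 TPM. In each of Zp1 and Zp3 SN replicate 1 was the lowest and SN replicate 2 the highest of the 4 libraries. Other abundant oocyte genes separated the stages. Bmp15, a growth factor for the surrounding cells, was lower in SN, at 1007 and 951 TPM against 654 and 815 TPM, and Obox1, an oocyte homeobox gene, was higher, at 3098 and 2745 TPM against 3631 and 3536 TPM.

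**Figure D2:**
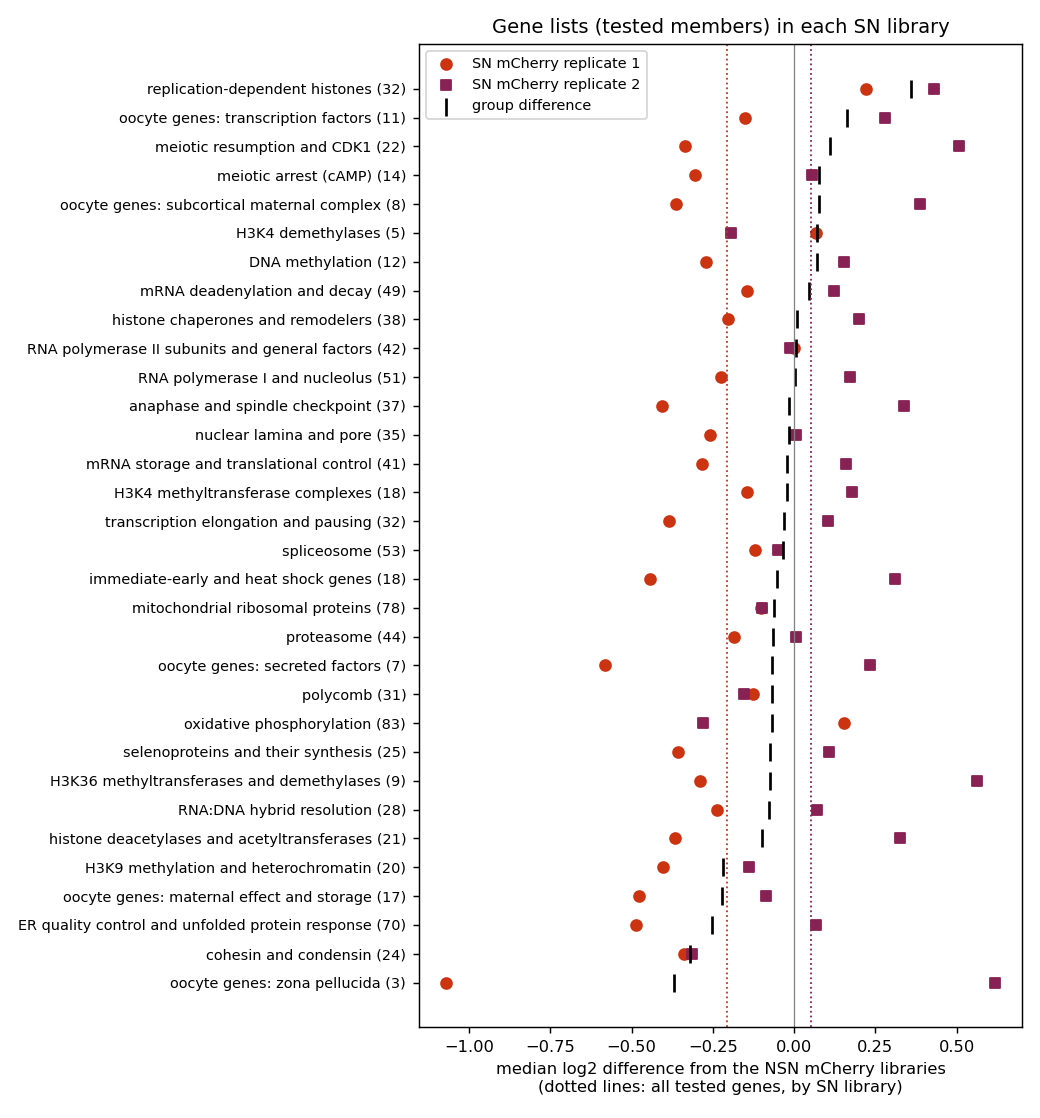
Median log2 difference from the mean of the NSN mCherry libraries (x axis) for 32 gene lists (y axis, tested members in parentheses): circles are SN replicate 1, squares SN replicate 2, ticks the group difference, dotted lines all tested genes. In 22 of the 32 lists replicate 1 lies below 0 and replicate 2 above it.

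The split between the SN libraries ran through the lists. In 22 of 32 lists the median was below 0 in SN replicate 1 and above 0 in replicate 2, in 3 the reverse, in 6 below 0 in both and in 1 above 0 in both. The median over all tested genes was -0.21 in replicate 1 and 0.05 in replicate 2. Transcript GC content moved with this split. In the decile of genes with the lowest GC the medians were -0.10 (replicate 1) and -0.33 (replicate 2), and in the decile with the highest they were -0.36 and 0.61. Of the 275 genes lower at the unadjusted threshold 53 were in the lowest GC decile and 15 in the highest. Its part in the stage difference was not tested beyond a fit with the GC trend removed, which left 0 genes past the adjusted threshold.

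**Figure D3:**
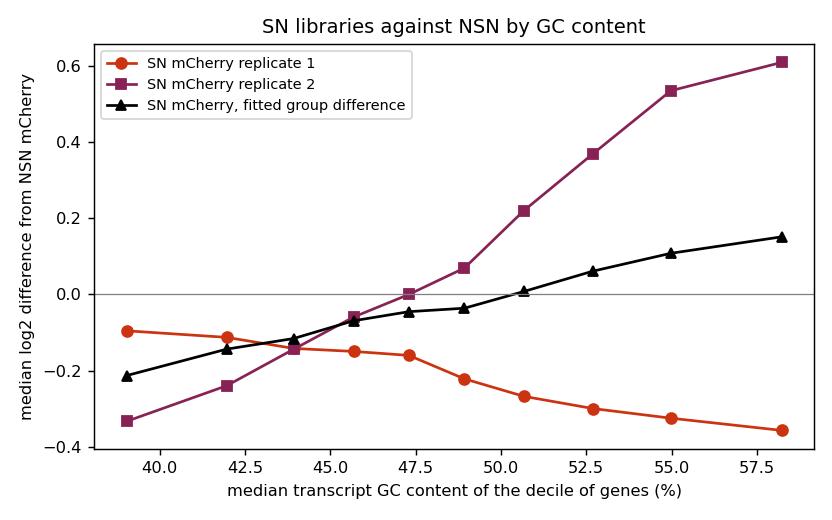
Median log2 difference from NSN mCherry (y axis) in deciles of genes by transcript GC content (x axis, percent). Replicate 2 runs from -0.33 to 0.61 and replicate 1 from -0.10 to -0.36, so the 2 SN libraries part towards high GC.

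The Rnaseh1 oocytes gave a stage comparison with no library in common, so the genes chosen on mCherry values could be read there. Stage went with the level of the overexpressed gene in these libraries: Rnaseh1 stood at 745 and 229 TPM in NSN and at 1361 and 1083 TPM in SN (1.55 ± 0.57, unadjusted p = 0.0269). The part of Rnaseh1 itself in their stage differences cannot be told apart from that of the stage. Of the 275 genes lower in SN at the unadjusted threshold, 223 (81.1%) were lower in SN in the Rnaseh1 libraries as well, against 48.0% of all tested genes. Of these 275, 156 (56.7%) had both SN values below both NSN values (12.5% of all genes), and 82 (29.8%) were again under an unadjusted p of 0.05 (2.36%). Of the 53 higher genes 27 (50.9%) were higher, against 52.0% of all genes, 10 were separate (18.9%, against 14.1%) and 3 reached the unadjusted threshold (5.66%, against 2.22%). The lower genes were thus above the share of all genes by each of these 3 measures. The higher genes were near it by direction and above it by the other 2, which rest on 10 and 3 genes. But 5 of the 53 higher genes (9.43%, against 2.36% of all genes) reached the unadjusted threshold in the opposite direction. Of the 275 lower genes 5 did so (1.82%, against 2.22%). The contrast between lower and higher genes was not tested. The fit pools the spread over all groups, which favours genes that vary little in the Rnaseh1 libraries too. By the 2-fold rule, which uses the mCherry values alone, 347 of 461 lower genes (75.3%) and 92 of 174 higher genes (52.9%) kept their direction.

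**Figure D4:**
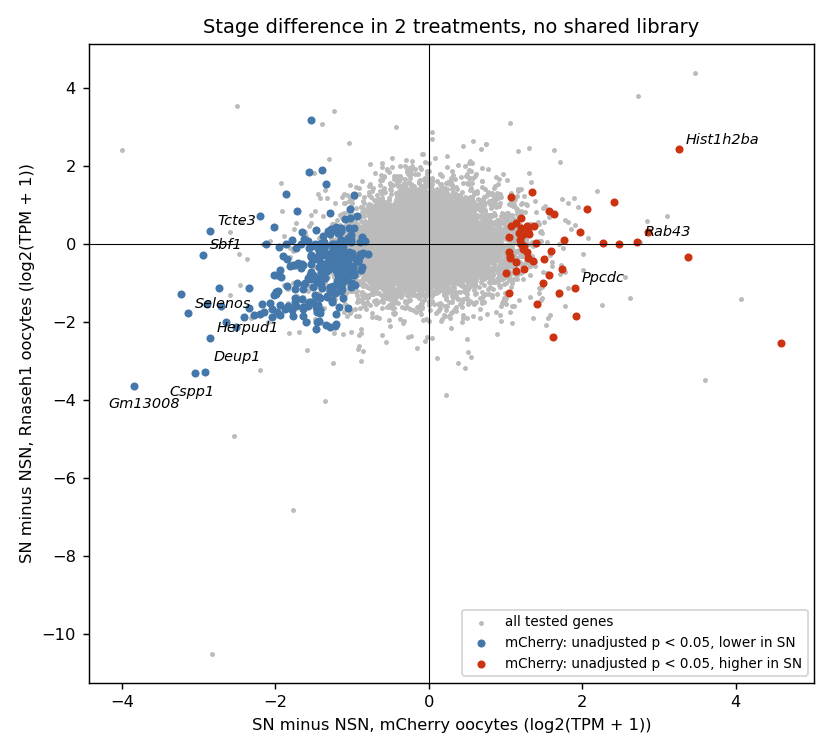
SN minus NSN difference in mCherry oocytes (x axis) and in Rnaseh1 oocytes (y axis), log2(TPM + 1), 1 point per tested gene; blue and red points had an unadjusted p under 0.05 in mCherry. Most blue points (223 of 275) lie below 0 on the y axis, and the red points lie on both sides of it.

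The share of lower genes that kept their direction was compared with that of all genes in other fits, chosen after seeing the data. It was 84.5% (all genes 53.8%) after median centring, 83.6% (49.4%) after quantile normalization and 84.0% (47.5%) with the GC trend removed. Without NSN Rnaseh1 replicate 2 it was 76.4% (64.2%), without NSN Rnaseh1 replicate 1 68.0% (32.5%), without SN mCherry replicate 2 78.1% (48.0%), without SN mCherry replicate 1 70.4% (48.0%), and without both SN mCherry replicate 2 and NSN Rnaseh1 replicate 2 87.5% (64.2%). For higher genes the share was 39.2% to 68.1%, against 35.7% to 67.4% of all genes. It lay below the share of all genes in the main fit and without SN mCherry replicate 1, and furthest above it without both those libraries (58.7%, all genes 35.7%). Over all 12736 genes, Pearson's r between the stage differences of the 2 treatments was 0.146 (Spearman's rho 0.093), given as a description across genes, which are not replicates.

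By requiring an unadjusted p under 0.05 and separate libraries in both treatments, 82 of the 12736 tested genes were lower in SN and 3 higher. At that p alone, 2.16% of all genes were lower and 0.416% higher with mCherry, and 2.36% and 2.22% with Rnaseh1. The 3 higher genes were Hist1h2ba, Prlr and a gene model. Hist1h2ba stood at 5.38 and 0 TPM in NSN Rnaseh1 and at 15.6 and 10.1 TPM in SN Rnaseh1 (2.43). The 82 included Selenos (12.9 and 5.88 TPM against 1.5 and 2.30 TPM in the Rnaseh1 libraries, -1.77), Herpud1 (7.08 and 2.47 TPM against 0 in both, -2.41), Cspp1 (11.8 and 41.8 TPM against 0.940 and 1.87 TPM, -3.31) and Wdr61 (75.8 and 49.5 TPM against 21.8 and 12.5 TPM, -1.83). H2afz (243 and 426 TPM against 135 and 106 TPM), Ddx4 (29.7 and 22.6 TPM against 9.41 and 9.56 TPM), Deup1, Ldhc, Cbx3 and Mrps34 were among them as well. Separate libraries within either treatment were a condition for this set and are no further result.

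Further members of the 82, chosen after their values were seen, were spread over many functions. Cct4, of the cytosolic chaperonin, stood at 86.9 and 93.0 TPM in NSN and 25.9 and 34.5 TPM in SN with mCherry, and at 67.6 and 53.0 TPM against 16.5 and 25.6 TPM with Rnaseh1. Akr1c21, a steroid dehydrogenase, stood at 70.0 and 86.2 TPM against 25.7 and 19.7 TPM, and at 50.4 and 63.7 TPM against 23.2 and 26.6 TPM. Gbp7, an interferon-inducible GTPase, stood at 14.98 and 20.5 TPM against 3.16 and 2.94 TPM with mCherry. The gene model Gm13008 (ENSMUSG00000085714.1, chromosome 4, 136003566 to 136010937, annotated as antisense) was listed at 0 in all 4 SN libraries and stood at 15.3, 11.7, 10.7 and 12.4 TPM in the NSN libraries. In a fit of the stage averaged over both treatments, chosen after seeing the data, Gm13008 was the 1 gene of 12736 (0.00785%) past the adjusted threshold (adjusted p = 0.0257, difference -3.74). The use of strand in the counting is not given in the sources used here, so its reads cannot be told apart from those of Eloa, an elongin gene that spans it on the other strand (chromosome 4, 136003368 to 136021763). Eloa was itself lower in SN, at 4.43 and 5.86 TPM against 0.580 and 2.17 TPM with mCherry and at 3.53 and 2.82 TPM against 0.6 and 0.220 TPM with Rnaseh1.

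Other mCherry stage genes recurred in part or not at all. Kdm1b, at 121 and 227 TPM in NSN Rnaseh1 and 97.3 and 108 TPM in SN Rnaseh1, kept its direction (-0.68) with separate libraries, while Setd2, at 57.9 and 35.5 TPM against 50.7 and 30.1 TPM, overlapped (-0.21). Tcte3 stood at 5.40 and 9.04 TPM against 8.22 and 10.2 TPM, and Sbf1 was at or under 0.470 TPM in all 4 Rnaseh1 libraries. Ppcdc, Ccl1 and Pabpc1 had separate libraries in the opposite direction, as Ppcdc at 3.50 and 2.08 TPM against 1.24 and 0.310 TPM. Lbr, an anchor of heterochromatin at the nuclear lamina, stood at 112 and 240 TPM against 124 and 75.2 TPM with mCherry and at 199 and 160 TPM against 474 and 577 TPM with Rnaseh1. The difference between the 2 stage comparisons passed the adjusted threshold for 0 of 12736 genes (0%).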

How the data were processed

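The deposited values are TPM, 1 column per library, made by the authors from polyadenylated RNA reverse transcribed with SuperScript II. Per the submitters' processing notes, RSEM 1.3.3, STAR 2.7.0d, Trim Galore 0.6.7 and DESeq2 were used with the mm10 build, with no roles given. TPM keeps no depth, so no counting error is given and an exact 0 is reported as listed at 0. The mitochondrial chromosome had 0 genes in the table.

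Of the identifiers 35319 had a symbol and 70 had none. GENCODE M21 (GRCm38), which matched 34611 with their version, gave coordinates, GC content and length. Log2(TPM + 1) was fitted with limma 3.58.1 (eBayes with trend, R 4.3.3) as 4 group means over 8 libraries, tables were made with Python 3.11.15, and the method was tested on simulated data. There 200 genes with a mean of at least 5 TPM were changed in SN mCherry by 1, 2 or 3 (log2). Of them 0%, 0% and 72% passed the adjusted threshold, with 0, 0 and 9 false calls. Each gene was given the same spread in all groups, unlike the real libraries, and changes in genes of lower level were not covered. The fit could thus hardly find differences of 1 or 2 (log2) at that threshold, so 0 genes past it does not show their absence. Named genes were 5 markers and Rnaseh1, then in each direction up to 12 by size of difference among those with an unadjusted p under 0.05, separate libraries and a mean of at least 5 TPM in the higher group, leaving out gene models (1 of these is not reported here), then up to 4 members per list described with the smallest p. Further genes were added as neighbours, relatives or known examples after their values were seen. Members and lists were chosen with earlier results of these data known. Alternatives covered pseudocount, filter, scaling, GC trend, weights, replicate block and left-out libraries. Libraries of the rescue experiment were not analysed here.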

Additional observations from a re-analysis of the deposited data

How the results depend on the processing

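The mCherry stage comparison had 0 genes past the adjusted threshold under each of the other alternatives, and 1 in the fit averaged over both treatments, which was added after seeing the data. At an unadjusted p under 0.05 the count was 328, against 654 with no filter, 182 with a filter of TPM at least 5, and 155 to 665 when 1 mCherry library was left out (lowest without NSN replicate 2, 179 without NSN replicate 1, highest without SN replicate 1). It was 537 without NSN Rnaseh1 replicate 2 and 1473 without that library and SN mCherry replicate 2, also added later. Where a group kept 1 library, that library was assumed to vary like the other groups.

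The stage comparison in Rnaseh1 oocytes had 0 genes past the threshold, and 0 to 102 when 1 library was left out (102 without NSN Rnaseh1 replicate 1). The difference between treatments had 0, and 0 to 1 with a library left out (1 without NSN Rnaseh1 replicate 2). The cause was not tested.

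Of 1323 values of the genes named, 19 changed sign. The filter, weight and replicate block settings, and leaving out a Rnaseh1 library, could not change these differences. Leaving out 1 mCherry library could not change the sign for genes with separate libraries. The count was thus in part fixed in advance and does not measure how stable the values are. With the GC trend removed Hist1h2aa was at -0.024. With 1 mCherry library left out, Hist1h2aa ran from -0.34 to 0.62, Kdm1a from -0.014 to 0.16, Zp1 from -1.07 to 1.35, Zp3 from -1.36 to 0.62, Rnaseh1 from -0.58 to 0.11, Hspa5 from -1.07 to 0.081, Zar1 from -0.16 to 2.003, Mapk3 from -0.53 to 2.97, Kdm5a from -0.20 to 2.13, Mos from -1.39 to 1.61 and C1qb from -1.63 to 0.40. Without SN mCherry replicate 2 and NSN Rnaseh1 replicate 2 together, Zp1 was at -1.07, Zar1 at -0.16, Mapk3 at -0.53 and Mos at -1.39. List medians moved beyond the spread between the SN libraries in 79 of 630 values, and the weights and the replicate block could not move them.

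In a fit with the replicate block, 0 genes passed the adjusted threshold and 237 the unadjusted one. The labels name no shared source, so whether replicate numbers pair the samples is not known. The deviations of same-numbered NSN and SN mCherry libraries had r = -0.209, which cannot decide it with 2 libraries a group.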

Other observations

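Prlr, Gbp7 and Lsm8, chosen after their values were seen, separated the stages in both treatments. Prlr, the prolactin receptor, stood at 7.05 and 8.43 TPM in NSN mCherry and 12.9 and 23.2 TPM in SN mCherry, and at 4.96 and 2.98 TPM against 9.67 and 11.01 TPM in the Rnaseh1 libraries. Gbp7 stood at 11.03 and 15.4 TPM in NSN Rnaseh1 and at 2.61 and 3.60 TPM in SN Rnaseh1. Lsm8, of the nuclear U6 snRNA ring, stood at 39.4 and 58.4 TPM in NSN mCherry and 25.1 and 11.9 TPM in SN mCherry, and at 56.3 and 129 TPM against 36.5 and 28.4 TPM with Rnaseh1.

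Some genes high in 1 SN mCherry library alone stood out. Mapk3, the kinase ERK1, stood at 21.01 and 14.5 TPM in NSN and at 11.8 and 144 TPM in SN, and Sirt6, a chromatin deacetylase, at 5.38 and 6.46 TPM against 6.08 and 33.4 TPM. Kdm5a, an H3K4 demethylase, was high in the other SN library, at 5.94 and 11.4 TPM in NSN and 39.7 and 7.11 TPM in SN.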
